A study of Mus musculus with 16 samples.

Results

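The shift in capture enrichment that depended on hydrogen peroxide was measured in Neuro 2a cells, a mouse neuroblastoma line, as an interaction: the difference between captured and unselected RNA with peroxide, minus the same difference without it. It used all 16 of the 16 arrays of the series. Ox-ARP was RNA of peroxide-treated cells captured after labelling, Ox-total was labelled RNA of treated cells without capture, and Basal-ARP and Basal-total were the same fractions of untreated cells, with 4 arrays in each group. The cells of all 4 groups carried the strain label C57BL/6J, and the RNA of all 4 was labelled with the aldehyde reactive probe (ARP). Dose and duration of peroxide are not given in the sources used. None of the 4 groups was captured without the ARP label, so the part of RNA that beads hold without label was not tested. Nothing states that replicates were separate cultures, so p-values measure the spread between these samples, which may be technical.

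An RNA base damaged by oxidation can be lost, which leaves an abasic site whose sugar exposes an aldehyde. ARP couples a biotin to that aldehyde, and streptavidin beads then hold the labelled molecules. The total RNA signal stands for how abundant a transcript is, as far as amplification copied it. Captured against total RNA shows whether the transcript is over- or under-represented among the molecules held. The interaction asks whether that representation differed after peroxide. Values were quantile normalized, so a gene is described relative to the other transcripts on its array. The amount of RNA recovered was not measured.

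Array mean signals ran from 328 to 533 intensity units, and between 10351 and 11068 of 25697 probes gave a detected signal on an array. The mean signal averaged 441 ± 63.1 for Ox-ARP, 461 ± 65.1 for Ox-total, 390 ± 71.7 for Basal-ARP and 435 ± 65.6 for Basal-total (SD, n = 4 arrays each). The lowest correlation between 2 arrays was 0.95. Of 20 neuroblastoma and neural crest markers on the array, 16 passed the detection filter, and Mycn, Nefl, Nefm and Tubb3 did not. Of the macrophage and blood markers 0 of 4 passed, of the fibroblast markers 1 of 6 (Dcn), and of the epithelial and endothelial markers 1 of 3 each (Krt8 and Pecam1). Of the neural crest and glial markers 2 of 5 passed (Sox9 and Mbp). Replicates 1 and 2 of every group lay on chip 1 and replicates 3 and 4 on chip 2, and array position within a chip cannot be told apart from group.

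Capture differed between peroxide-treated and untreated cells for a small set of transcripts, in both directions. Of 8072 features tested (7464 named genes and 608 probes without a symbol), 125 passed at a Benjamini-Hochberg adjusted p under 0.05 in limma, which is 1.55%. Of these, 56 were raised (0.694% of all features), meaning that their captured over total ratio was higher with peroxide, and 69 were lowered (0.855%). The median interaction was 0.67 among those raised and -0.70 among those lowered, on a log2 scale, and 18 reached 1 or more in size (4 raised, 14 lowered). The smallest that passed was 0.48 in size, and the median standard error over all features was 0.17.

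The split between raised and lowered depended on the scaling: median scaling gave 131 raised and 31 lowered, the authors' processed values 152 and 66, and no normalization 3 and 2. Of the 125 calls, 68 also passed with median scaling, 108 with the authors' values and 2 with no normalization. These 2 were Mid1 and Ccdc144b, which passed the detection filter only through Basal-ARP, where they were high. Rab1a (adjusted p = 0.102 in limma), Metrn (0.11), Prf1 (0.178) and Cuedc1 (0.225) did not pass with no normalization. Among the genes named here, median scaling ended the calls of Nsl1, Erich5, Fos, Plk1, Cenpb, Cebpb, Ncoa4, Atp5o, Slc38a2, Rab12, Rab14, Zfp46, Zfp595 and Zfp597 (adjusted p from 0.058 to 0.199 in limma). Captured and total arrays with the same replicate number deviated together within a treatment. The labels do not state pairs, and same-numbered arrays also shared a chip. With these numbers taken as pairs in a block, 961 features passed (11.9%), 511 raised (6.33%) and 450 lowered (5.57%), with all 125 among them. With chip as a block 526 passed (291 raised, 235 lowered). With 8 arrays each, chip 1 alone gave 3 and chip 2 alone 0 (881 at an unadjusted p under 0.05 in limma). Without replicate 1 of every group 12 passed, without replicate 2, 5, without replicate 3, 54, and without replicate 4, 7.

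All 125 features had an interaction of the same sign in each of the 4 same-numbered comparisons, against 36.0% of all features. All 125 also had the same sign on both chips, against 67.5% of all features. These arrays chose the 125, so both counts describe how uniform they were and test nothing. Across all 8072 features the interactions on the 2 chips, which share no array, correlated with a Pearson's r of 0.53 and a Spearman's rho of 0.50. Features are not independent replicates, and both chips shared array positions and probes.

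**Figure D1:**
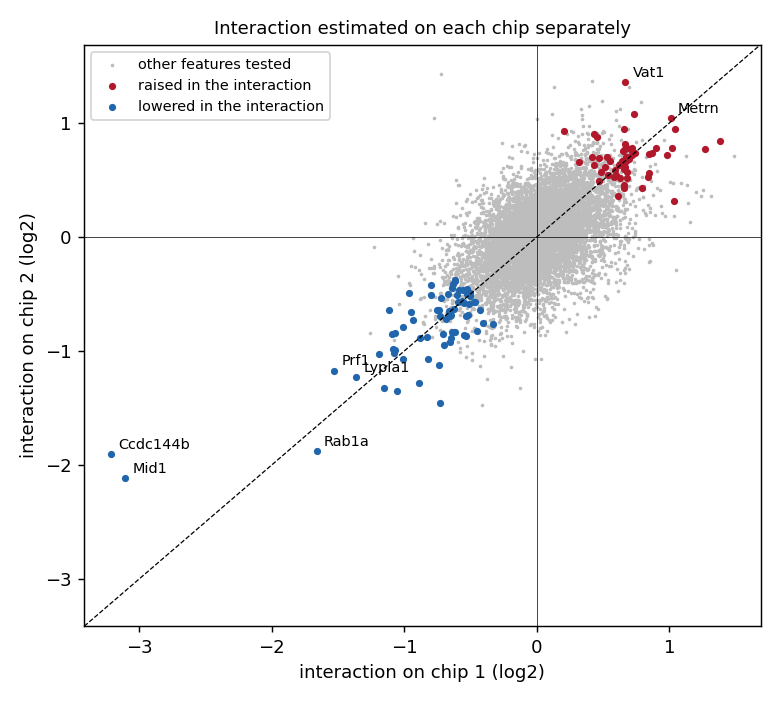
Interaction on chip 1 (replicates 1 and 2, horizontal axis, log2) against chip 2 (replicates 3 and 4, vertical axis, log2), 1 point per feature, with the 56 raised features in red, the 69 lowered in blue and all others in grey. Every coloured point lies in the lower left or upper right quadrant, and Mid1 and Ccdc144b lie farthest from 0, at -3.11 and -3.22 on chip 1 against -2.12 and -1.91 on chip 2. Both passed the detection filter only through Basal-ARP, where they were high.

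Rab1a, the gene of a small GTPase that directs traffic from the endoplasmic reticulum to the Golgi, had the smallest p of all. On the 4 arrays of each group its log2 intensity was 7.76, 7.79, 7.98 and 7.23 in Ox-ARP against 9.10, 9.11, 9.13 and 8.95 in Ox-total. In untreated cells it was 9.48, 9.59, 9.69 and 9.90 in Basal-ARP against 9.16, 9.25, 9.31 and 9.40 in Basal-total. Captured RNA thus lay below total RNA on all arrays with peroxide and above it on all arrays without, with no overlap in either pair of groups. The interaction was -1.77 ± 0.19 (SE, limma, adjusted p = 0.000223), made of -1.38 with peroxide and 0.39 without. In captured RNA the peroxide difference was -1.98, and in total RNA it was -0.21.

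Prf1 encodes perforin, the pore-forming protein of cytotoxic lymphocytes. It had a log2 intensity of 7.98, 7.83, 7.77 and 7.94 in Ox-ARP, against 9.55, 9.16, 9.14 and 9.26 in Ox-total. It had 9.25, 9.07, 9.09 and 9.0 in Basal-ARP, against 8.84, 9.31, 9.32 and 9.10 in Basal-total. The Ox-ARP arrays stood alone below the others, and the untreated fractions overlapped. Its interaction was -1.35 ± 0.16 (limma, adjusted p = 0.000479). No other probe of Prf1 passed the detection filter, nor did the macrophage and blood markers (0 of 4). Whether the probe read perforin RNA in these cells was not tested. Lypla1, the gene of acyl-protein thioesterase 1, which removes palmitate from proteins, had an interaction of -1.30 ± 0.18 (limma, adjusted p = 0.00163), and its log2 intensity was 7.51, 7.51, 7.84 and 7.46 in Ox-ARP. It was 8.78, 8.26, 8.57 and 8.34 in Ox-total, 8.92, 9.12, 9.30 and 9.14 in Basal-ARP, and 8.51, 8.82, 8.75 and 8.84 in Basal-total. Captured and total RNA did not overlap in either treatment, in opposite directions. A second passing probe of Lypla1 had 0.10 ± 0.33, and with the mean of both probes the gene did not pass (-0.60, adjusted p = 0.0768).

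Ccne2, Mcm7, Melk and Nsl1, with roles in cell division, were also lowered. They were grouped here after their values were seen. The lists of mitosis, replication and DNA synthesis entry genes had median interactions of -0.03, 0.00 and 0.12. Ccne2 encodes cyclin E2, which drives entry into DNA synthesis, and had an interaction of -1.04 ± 0.18 (limma, adjusted p = 0.0095). It read 8.38, 8.30, 8.41 and 8.07 (log2 intensity) in Ox-ARP against 8.84, 8.57, 8.96 and 8.86 in Ox-total, and 9.33, 9.68, 9.54 and 9.54 in Basal-ARP against 8.64, 9.09, 9.22 and 9.07 in Basal-total. Captured RNA lay below total RNA with peroxide and above it without, with no overlap. Mcm7, a subunit of the replicative helicase, had -0.97 ± 0.19 (capture -0.54 with peroxide and 0.43 without). Melk, a kinase gene of dividing cells, had -1.11 ± 0.21 (capture -0.57 and 0.54 in the same order), with -0.58 ± 0.23 and -0.54 ± 0.24 on its other passing probes. Nsl1, a kinetochore gene, had -0.89 ± 0.16, within -0.96 to -0.81 in the 4 same-numbered comparisons.

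Nfe2l2 encodes NRF2, the transcription factor that switches on antioxidant genes. Its log2 intensity was 5.92, 5.85, 6.12 and 5.66 in Ox-ARP against 6.27, 5.87, 6.19 and 6.04 in Ox-total, and the treated fractions overlapped. It was 7.11, 6.90, 7.08 and 7.22 in Basal-ARP against 6.21, 6.53, 6.39 and 6.20 in Basal-total, with no overlap. The interaction was -0.95 ± 0.16 (limma, adjusted p = 0.0095), with capture at -0.20 with peroxide and 0.74 without. Its same-numbered values spread from -1.40 to -0.39.

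Other lowered genes differed in which treatment held the capture difference. Psmd5, whose protein helps assemble the proteasome cap, had capture at -1.17 with peroxide and -0.14 without, an interaction of -1.03 ± 0.19. Erich5 (-1.08 ± 0.22) and Sec22a, a gene of vesicle traffic from the endoplasmic reticulum (-0.96 ± 0.16), were of the same kind, with capture at -1.19 and -0.82 with peroxide and -0.11 and 0.14 without. Ctps2, a CTP synthase gene, had capture at -0.35 with peroxide and 0.70 without (interaction -1.05 ± 0.18), and its untreated fractions did not overlap while its treated fractions did. Its second probe had -0.29 ± 0.13. The adjusted p-values of these 4 genes ran from 0.0095 to 0.0198.

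The interactions of largest size belonged to genes near the detection limit. Mid1, the gene of a ubiquitin ligase found on microtubules, gave a detected signal on all 4 Basal-ARP arrays and on none of the other 12. Its log2 intensity was 4.58, 4.50, 4.67 and 4.44 in Ox-ARP, 4.43, 4.50, 4.37 and 4.43 in Ox-total. It was 8.16, 7.79, 6.60 and 7.78 in Basal-ARP and 4.67, 4.89, 4.59 and 5.25 in Basal-total. Basal-ARP was at least 4.16-fold higher than Ox-ARP and at least 4.10-fold higher than Basal-total. For such a bound the brighter group's mean was divided by a floor, the weakest signal detected on each dim array or the probe's signal there if larger. Where the brighter group was not detected on all 4 arrays, its undetected signals entered as measured, and the value is no bound. The fitted interaction, -2.61 ± 0.32, is no bound, because 3 of its 4 groups had no detected signal. Mid1 passed the detection filter only through Basal-ARP, the group where it was high, as did Ccdc144b and Slc1a5 below. Their interactions are therefore a description.

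Ccdc144b had the same form, detected on 4 Basal-ARP arrays, 1 Basal-total array and 0 with peroxide. Log2 intensities were 4.68, 4.93, 5.11 and 5.34 in Ox-ARP against 7.12, 7.80, 7.04 and 7.70 in Basal-ARP, so it was at least 3.71-fold lower in Ox-ARP (fitted interaction -2.56 ± 0.30). In total RNA they were 5.41, 5.22, 5.4 and 5.02 in Ox-total and 4.72, 4.79, 5.72 and 5.18 in Basal-total, which overlapped. Slc1a5, a neutral amino acid transporter that carries glutamine, was over-represented in captured RNA in both treatments. It was about 1.14-fold higher in Ox-ARP than the floor of Ox-total, where it was detected on 3 and 0 arrays. It was at least 2.76-fold higher in Basal-ARP than in Basal-total, on 4 and 0 arrays. The fitted interaction was -1.24 ± 0.22, and -0.89 ± 0.19 on its second probe. Zfp386, a zinc finger gene detected on 1 Ox-ARP array and all others, had -0.90 ± 0.20 (limma, adjusted p = 0.0263), and its second probe had -0.03 ± 0.21.

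Among the raised genes, Metrn encodes meteorin, a secreted protein of the nervous system that acts on glia and neurites. Its log2 intensity was 10.53, 10.32, 9.99 and 10.18 in Ox-ARP against 10.27, 10.09, 9.94 and 10.08 in Ox-total, and these overlapped. It was 9.57, 9.27, 9.11 and 9.20 in Basal-ARP against 10.19, 10.18, 10.16 and 10.10 in Basal-total, with captured RNA below total RNA on every array. The interaction was 1.03 ± 0.16 (limma, adjusted p = 0.0095), with capture at 0.16 with peroxide and -0.87 without, and it was 1.01 and 1.04 on the 2 chips.

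Cuedc1, whose protein carries a ubiquitin-binding CUE domain, had the smallest p among raised genes, with an interaction of 0.90 ± 0.13 (limma, adjusted p = 0.00235). Log2 intensities were 7.24, 7.04, 7.10 and 7.07 in Ox-ARP against 7.27, 6.94, 7.10 and 7.29 in Ox-total, and 6.54, 6.50, 6.54 and 6.40 in Basal-ARP against 7.46, 7.54, 7.40 and 7.32 in Basal-total. The treated fractions overlapped and the untreated fractions stood apart. Ppp4c, the catalytic subunit of protein phosphatase 4, had capture at -0.05 with peroxide and -0.77 without (interaction 0.72 ± 0.12, limma adjusted p = 0.00981). Islr2, a leucine-rich repeat gene of growing axons (0.74 ± 0.17), and Elfn2, a gene of a membrane protein that inhibits protein phosphatase 1 (1.02 ± 0.20), were also under-represented among captured RNA chiefly without peroxide. Their capture was -0.11 and -0.18 with peroxide and -0.85 and -1.20 without.

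In other raised genes the captured fraction stood above total RNA with peroxide and below it without. Pebp1 encodes the Raf kinase inhibitor protein and had a log2 intensity of 9.81, 9.80, 9.62 and 9.81 in Ox-ARP against 9.28, 9.30, 9.40 and 9.53 in Ox-total. It had 9.0, 8.99, 8.33 and 8.87 in Basal-ARP against 9.14, 9.29, 9.50 and 9.35 in Basal-total. Neither pair overlapped, and the interaction was 0.91 ± 0.18 (limma, adjusted p = 0.0188). Hexa, a lysosomal hexosaminidase gene (0.73 ± 0.13), and Stard10, a lipid transfer gene (0.74 ± 0.13), had capture at 0.40 and 0.39 with peroxide and -0.33 and -0.35 without. Pmm1, a phosphomannomutase gene of glycosylation, had 0.80 ± 0.17, with 0.73 ± 0.24 on its second probe, whereas the second probe of Stard10 had 0.16 ± 0.22, and with the mean of its probes Stard10 did not pass (0.45, adjusted p = 0.126). Abcb6, a porphyrin transporter gene (0.79 ± 0.17), and Abhd8 (0.74 ± 0.17) also passed, with overlap between the untreated fractions. The adjusted p-values of these 5 genes ran from 0.0114 to 0.0368.

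Vat1, a gene of a vesicle membrane protein, varied widely between same-numbered comparisons. Its log2 intensity was 9.94, 9.74, 9.90 and 10.07 in Ox-ARP, 9.39, 9.58, 9.43 and 9.67 in Ox-total, with 8.73, 9.05, 8.03 and 8.96 in Basal-ARP and 9.38, 9.03, 9.36 and 9.47 in Basal-total. The treated fractions did not overlap and the untreated fractions did. Its interaction was 1.01 ± 0.24 (limma, adjusted p = 0.0402), with same-numbered values from 0.14 to 1.81. With all probes tested, dim ones included, Vat1 did not pass (adjusted p = 0.0815), nor did Fos (0.0793), Abhd8 (0.0631), Zfp386 (0.0503) or Islr2 (0.0502).

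**Figure D2:**
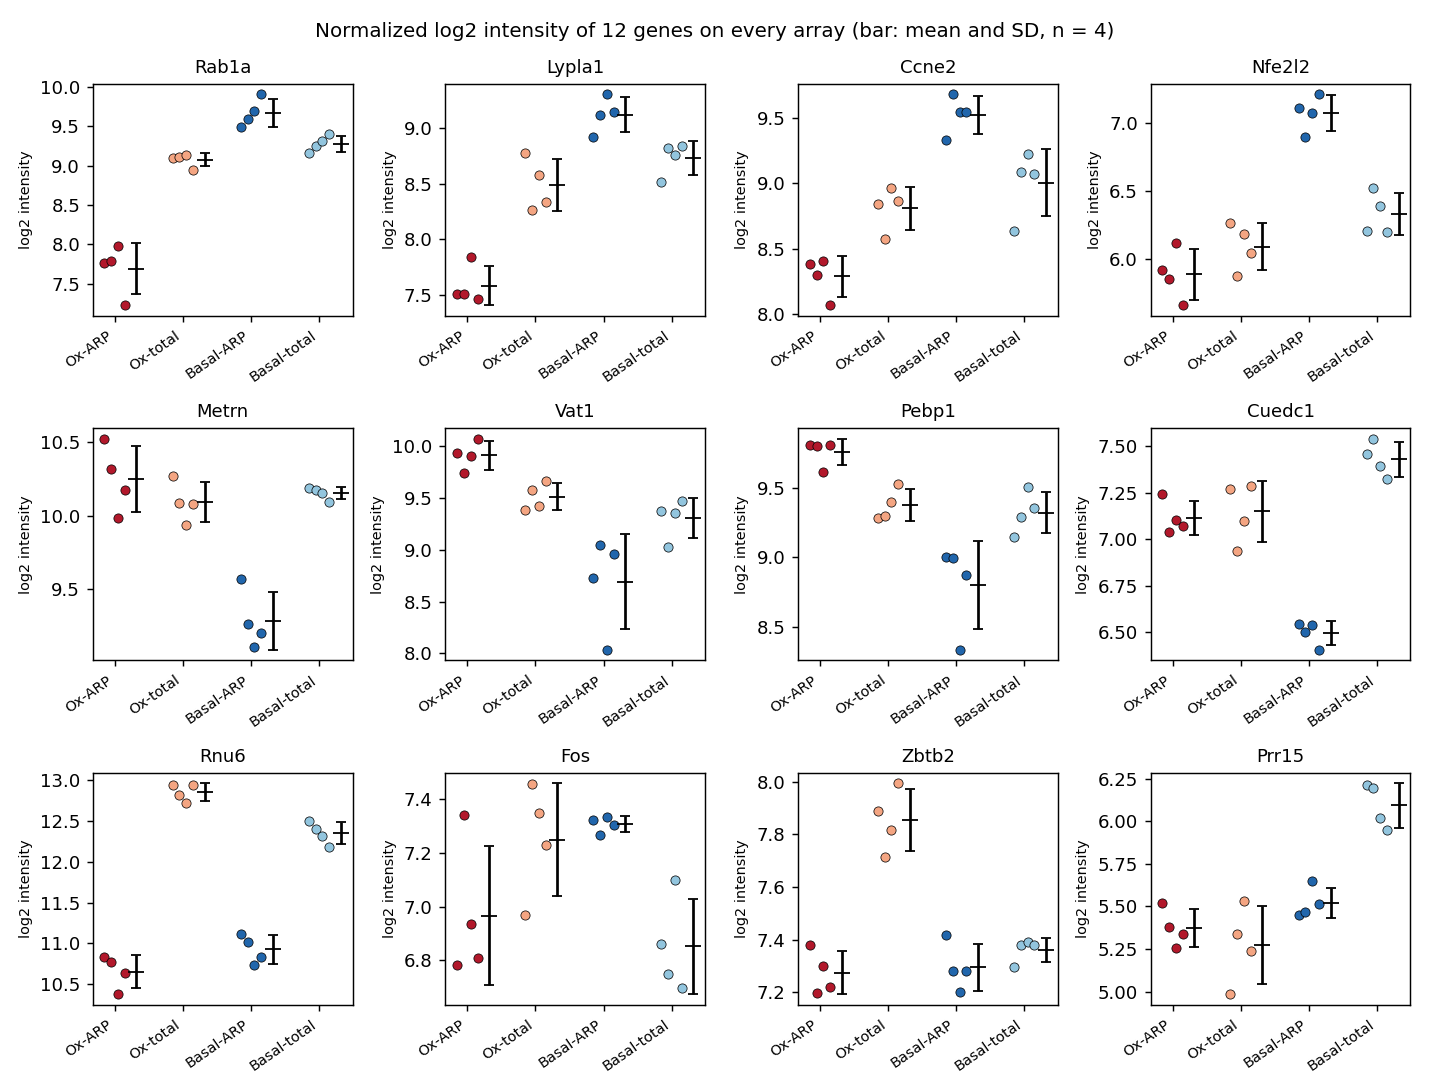
Log2 normalized intensity (vertical axis) of single genes on each of the 16 arrays, with groups from left to right in the order Ox-ARP, Ox-total, Basal-ARP and Basal-total, 1 point per array and a bar for the mean and SD of each group (n = 4). Rab1a in Ox-ARP lies between 7.23 and 7.98, below all its other arrays, Cuedc1 is lowest in Basal-ARP, and Zbtb2 is highest in Ox-total.

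Of the raised genes not detected on every array, Bco1, a carotenoid-cleaving enzyme gene, was at least 1.5-fold higher in Ox-ARP than in Basal-ARP (detected on 4 and 0 arrays). The floor of Basal-ARP lay about 1.13-fold below Basal-total (0 and 3 arrays), which is no bound. Bco1 passed the detection filter only through Ox-ARP, the group where it was high, so its fitted interaction of 1.11 ± 0.18 is a description. Cacng7, which encodes an auxiliary protein of AMPA receptors, was detected on 2 Ox-ARP, 4 Ox-total, 0 Basal-ARP and 4 Basal-total arrays. It was about 1.13-fold higher in Ox-ARP than the floor of Basal-ARP, which is no bound. It was at least 1.66-fold lower in Basal-ARP than in Basal-total (fitted interaction 0.85 ± 0.16).

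The difference between treatments lay mostly in the captured fraction. Over the raised features the median peroxide difference was 0.64 in captured RNA and 0.01 in total RNA, and over the lowered features it was -0.79 in captured RNA and -0.09 in total RNA. Both are parts of the interaction that chose these features, so the medians are a description. Over all 8072 features the medians were 0.03 in captured and 0.02 in total RNA, with an SD of 0.32 in captured RNA and 0.17 in total RNA. Capture was positive with peroxide and negative without in 45 of the 56 raised features. It was negative with peroxide and positive without in 43 of the 69 lowered features. Both capture values make up the interaction that chose these features, so the counts are a description too. The same shares over all features were not counted.

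**Figure D3:**
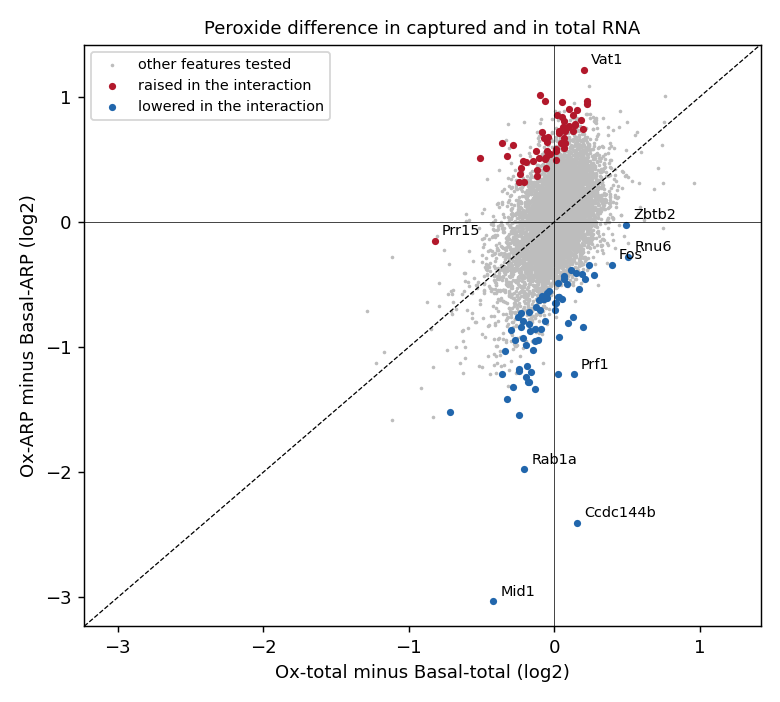
Peroxide difference in captured RNA (Ox-ARP minus Basal-ARP, log2) against that in total RNA (Ox-total minus Basal-total, log2), 1 point per feature, raised features in red and lowered features in blue. Coloured points spread more widely along the captured axis than along the total axis, where Prr15 (-0.82), Rnu6 (0.51) and Elfn2 (-0.51) are among those far from 0. The distance from the diagonal along either axis is the interaction.

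In 4 called genes total RNA moved more than captured RNA: Rnu6, Fos, Zbtb2 and Prr15. Elfn2 lay just outside this cut, with 0.51 in captured and -0.51 in total RNA. Both differences entered the choice of these genes, and captured RNA varied more over all features (SD 0.32 against 0.17). The count is therefore a description, and the same share over all features was not counted. Rnu6, the U6 small nuclear RNA of the spliceosome, had a log2 intensity of 10.83, 10.76, 10.37 and 10.64 in Ox-ARP against 12.95, 12.83, 12.72 and 12.94 in Ox-total. It had 11.12, 11.02, 10.73 and 10.83 in Basal-ARP against 12.51, 12.40, 12.31 and 12.19 in Basal-total. Captured RNA was far below total RNA in both treatments, and the total fractions of the treatments did not overlap while the captured fractions did. The peroxide difference was -0.28 in captured and 0.51 in total RNA, an interaction of -0.78 ± 0.16 (limma, adjusted p = 0.0201). The RNA was amplified before profiling, and how evenly U6 was copied was not tested.

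Fos, an immediate early transcription factor gene, had -0.34 in captured and 0.40 in total RNA, and all its treatment groups overlapped within each fraction. Its interaction of -0.74 ± 0.18 was at the threshold (limma, adjusted p = 0.0482) and did not pass with median scaling (-0.65, adjusted p = 0.199). Zbtb2, a zinc finger repressor gene outside the rule for named genes and chosen after its values were seen, had -0.02 in captured and 0.49 in total RNA. Log2 intensities were 7.38, 7.20, 7.30 and 7.22 in Ox-ARP against 7.89, 7.72, 7.82 and 8.0 in Ox-total, and 7.42, 7.28, 7.20 and 7.28 in Basal-ARP against 7.29, 7.38, 7.39 and 7.38 in Basal-total. The Ox-total arrays alone stood apart (interaction -0.52 ± 0.11, limma adjusted p = 0.0313). Prr15 was detected on 0 arrays with peroxide and on all 8 without, and was at least 1.40-fold lower in Ox-total than in Basal-total. With both treated fractions below detection, its fitted interaction of 0.67 ± 0.15 is no measure of capture in treated cells.

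**Figure D4:**
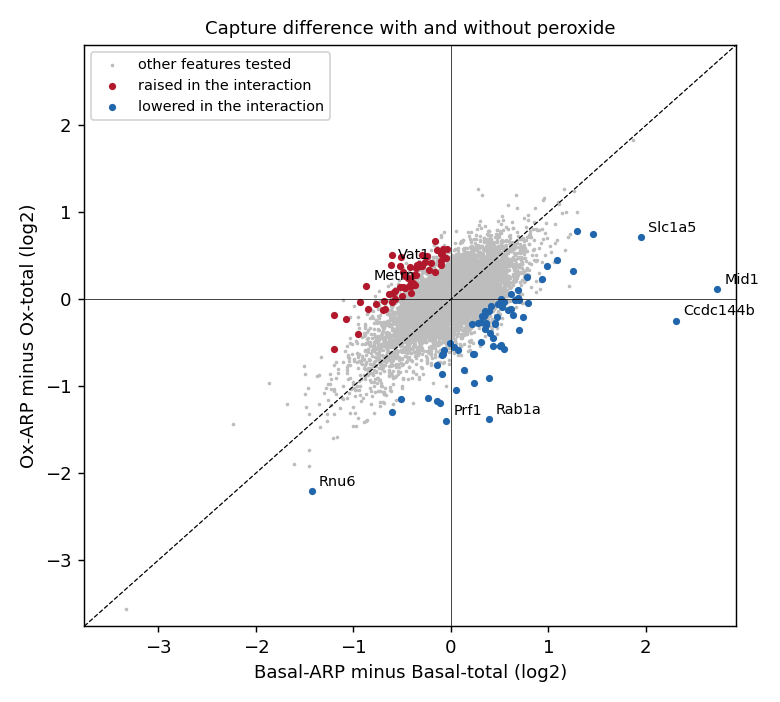
Capture difference with peroxide (Ox-ARP minus Ox-total, log2) against that without peroxide (Basal-ARP minus Basal-total, log2), 1 point per feature, with raised features in red, lowered features in blue and others in grey. Over all 8072 features, with no array shared between the axes, Pearson's r was 0.68, and the coloured points lie on either side of the diagonal of equal capture.

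Gene lists held few calls, to be read against 0.694% raised and 0.855% lowered over all features, or 6.33% and 5.57% with the pair block. The 164 tested Zfp zinc finger genes gave 1 raised, 4 lowered and 159 that did not pass, with a median interaction of -0.10 against 0.01 over all features. The lowered ones were Zfp386, Zfp597 (-0.73 ± 0.13), Zfp46 (-0.67 ± 0.13) and Zfp595 (-0.67 ± 0.12), and the raised one was Zfp523 (0.48 ± 0.11), named after its values were seen. Zfp595 had capture at -0.01 with peroxide and 0.66 without. Median scaling ended the calls of Zfp597, Zfp46 and Zfp595 (adjusted p = 0.128, 0.157 and 0.0687), and the mean of its probes ended that of Zfp386 (-0.47, adjusted p = 0.182). With the pair block 6 were raised and 13 lowered. Of 42 Rab GTPase genes, which direct vesicle traffic, 3 were lowered and 0 raised (median -0.08): Rab1a, Rab14 (-0.54 ± 0.13) and Rab12 (-0.50 ± 0.12). Rab14 and Rab12 did not pass with median scaling (adjusted p = 0.102 and 0.186), and with the pair block the list again had 0 raised and 3 lowered (7.14%, against 5.57% of all features).

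Of 52 mitosis genes 1 was raised, 2 were lowered and 49 did not pass (median -0.03). Top2a, the topoisomerase that untangles chromosomes, had -0.71 ± 0.13 (limma, adjusted p = 0.0104), with capture at -0.01 with peroxide and 0.70 without. Plk1, a mitotic kinase gene, had -0.58 ± 0.12 and the centromere gene Cenpb 0.52 ± 0.13, and median scaling ended both calls (adjusted p = 0.0944 and 0.069). Of 36 replication genes 2 were lowered, Mcm7 and Top2a, which is in both lists, and 0 raised (median 0.00). Of 34 genes of the step into DNA synthesis, Ccne2 was lowered and none was raised (median 0.12). Cdkn2d (0.53 ± 0.15) and E2f1 (0.52 ± 0.14) passed with the pair block (adjusted p = 0.0145 and 0.00915) but not in the fit without a block.

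Among transport and metabolic genes, 1 of 136 solute carriers was raised and 2 lowered (median 0.02). The raised one was Slc66a2 (0.69 ± 0.13), and the lowered ones were Slc1a5 and Slc38a2, a neutral amino acid transporter gene (-0.86 ± 0.16). The other probe of Slc38a2 had 0.17 ± 0.30, and with the mean of its probes the gene did not pass (-0.34, adjusted p = 0.345). Of 26 genes of iron handling and heme synthesis, Ncoa4, the receptor for ferritin degradation, was lowered (-0.63 ± 0.14) and none was raised (median -0.08). Of 73 nuclear encoded respiratory chain genes, the ATP synthase gene Atp5o was lowered (-0.61 ± 0.14) and 72 did not pass (median 0.00). Of 71 mitochondrial ribosomal genes, Mrpl46 was raised (0.56 ± 0.12), with capture at -0.40 with peroxide and -0.95 without, and 70 did not pass (median -0.02).

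Of 59 cytosolic ribosomal genes 0 passed in limma. Their median was 0.04, and with the pair block 3 were raised and 4 lowered. Rpl22 had 0.61 ± 0.15, Rps7 -0.56 ± 0.14 and Rps15a -0.46 ± 0.13. Their adjusted p-values were 0.0557, 0.0567 and 0.0805 without the block and 0.00631, 0.0157 and 0.0307 with it. Rps15a was lower with peroxide in both fractions, with a difference of -1.58 in captured and -1.12 in total RNA. Replication-dependent histone genes had the lowest median of the lists with more than 3 members, -0.18 over 34 genes, with 0 raised and 0 lowered. It was -0.29 on chip 1 and -0.03 on chip 2. H2bc18 had -0.79 ± 0.22, H4c6 -0.60 ± 0.18 and H2bc7 -0.53 ± 0.14, and with the pair block 5 histone genes were lowered and 0 raised. In these 3 genes the peroxide difference was -0.04, 0.02 and -0.17 in captured RNA against 0.75, 0.62 and 0.36 in total RNA, in the order named. How evenly amplification copied histone RNAs was not tested.

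Lists of stress and repair genes held few calls. Of 27 NRF2 targets, 1 was lowered (Nfe2l2 itself) and 26 did not pass (median 0.03), with 3 raised (11.1%) and 1 lowered with the pair block, and of 29 peroxide and superoxide enzyme genes 0 were called (median 0.00). Prdx1, a peroxiredoxin gene, had 0.36 ± 0.14 and Gstm4, a glutathione transferase gene, 0.42 ± 0.18. Both passed with the pair block (adjusted p = 0.0442 and 0.0373) but not in the fit without a block. Of 34 immediate early genes Fos alone was lowered (median -0.08), and 4 were with the pair block, Dusp1 (-0.39 ± 0.13) among them. Of 38 genes of the integrated and endoplasmic reticulum stress responses 1 was raised, Cebpb (0.48 ± 0.11, limma adjusted p = 0.0313). Of 39 base excision repair and nucleotide pool genes none was called and the median was 0.14, the highest of the lists, with 2 raised and 0 lowered with the pair block. Nudt1, whose enzyme clears oxidised nucleotides, had 0.48 ± 0.17 (adjusted p = 0.153, or 0.0461 with the pair block). Of 22 p53 targets 0 were called without the pair block (median -0.04). With it 3 were raised (Phlda3, Aen and Pidd1) and 3 lowered (Polk, Ddb2 and Gadd45g), 13.6% each way, and their names were chosen after their values were seen.

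Apart from Fos, the reference and stress genes of the rule did not pass. Gapdh had 0.11 ± 0.12 and Actb -0.04 ± 0.12, Hmox1, the heme oxygenase gene, -0.14 ± 0.15, Srxn1, a sulfiredoxin gene, 0.12 ± 0.17, Cdkn1a 0.13 ± 0.18 and Ddit3 -0.13 ± 0.23. Their adjusted p-values in limma ran from 0.673 to 0.909. The peroxide difference of Hmox1 was 0.12 in captured RNA and 0.25 in total RNA. None of 19 neuroblastoma and neural crest genes was called, with or without the pair block (median 0.08), and Elavl2 (-0.40 ± 0.16), Gata3 (-0.35 ± 0.13) and Isl1 (-0.32 ± 0.12) had the smallest p-values among them. Xist, the X-inactivation RNA, had -0.28 ± 0.42, with captured RNA below total RNA (-1.89 with peroxide and -1.61 without). The remaining lists, among them chaperones, splicing factors, translation factors, RNA decay, tRNA synthetases and TDP-43 with the FET proteins, held 0 called members each without the pair block, except proteasome subunits (Psmd5), microtubule genes (Mid1) and non-coding RNAs (Rnu6) with 1 each. With the pair block they did hold calls: 3 raised and 5 lowered of 50 splicing factors, 4 and 4 of 50 translation factors, 1 and 2 of 56 chaperones, 0 and 2 of 45 RNA decay genes, 3 and 0 of 32 tRNA synthetases and 2 and 0 of 15 in the TDP-43 list. It also called 2 raised and 3 lowered of 21 BCL2 family and caspase genes, and 3 raised and 10 lowered of 96 ubiquitin genes. Of the markers of fibroblasts, epithelium and endothelium 3 were tested and 0 were called.

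**Figure D5:**
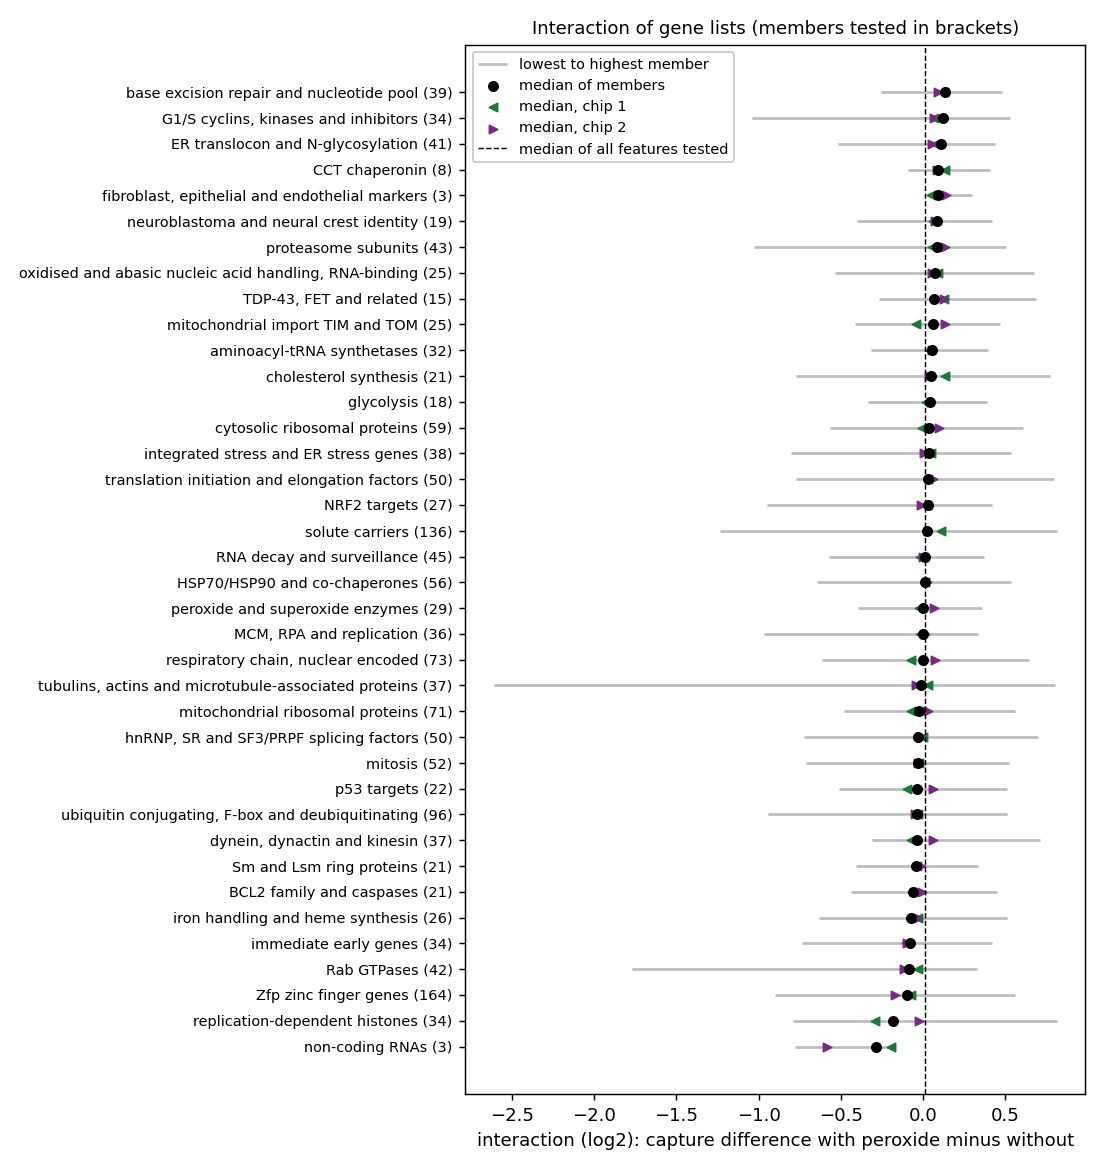
Interaction (log2, horizontal axis) of each gene list with its tested members in brackets, with a grey line from the lowest to the highest member, a black point at the median and triangles at the medians on chip 1 and chip 2. Medians lie close to the dashed median of all features at 0.01, apart from histones at -0.18 and the 3 non-coding RNAs at -0.28.

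Other probes of the same genes gave a further view of the called set. For 29 called genes 40 other probes passed the detection filter, and 31 of them (77.5%) had the sign of the called probe, against 65.2% of 2722 other probes over all genes. These probes were read on the same arrays that gave the calls, and some share a gene, so the shares are a description. Genomic span was taken as the distance from the start to the end of a gene in the RefSeq annotation. The median span was 11.96 kb for raised genes, 21.6 kb for lowered genes and 21.5 kb for all. Across 7462 genes the interaction and span had a Spearman's rho of -0.10, with 0.02 on chip 1 and -0.19 on chip 2, so the relation did not hold on both chips. Genes are not independent replicates.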

How the data were processed

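RNA of 16 samples was profiled on Illumina mouse bead arrays after amplification with the Ambion TotalPrep kit, per the labels' protocols. The table the authors deposited holds, for 25697 probes per array, a scanner intensity with no scaling across arrays, and a detection p-value whose smallest step corresponds to 798 negative controls. A deposited table of processed intensity from the same arrays was used as an alternative, with a floor of 1 before log2. The submitters' processing notes name GenomeStudio 2010.2.

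Intensities were background corrected with normexp (offset 16) in limma 3.58.1 (R 4.3.3), quantile normalized and taken to log2, which draws changes of dim probes towards 0. The filter kept the 10794 probes whose detection p-value was below 0.01 throughout 1 or more groups, and a gene was represented by its probe of highest mean. Symbols came from the platform annotation (23978 probes had 1, 0 had several and 1719 had none) and were updated through RefSeq (GRCm38.p6), where 23962 probes matched. A model with 1 mean per group was fitted with lmFit and eBayes (12 residual and 5.34 prior degrees of freedom), and adjusted p-values in the text are limma's with Benjamini-Hochberg adjustment over all 8072 features. The number of arrays limits the precision.

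Deviations from group means of same-numbered captured and total arrays correlated at 0.14 to 0.71 with peroxide and 0.29 to 0.64 without. Between treatments, same-numbered arrays correlated at 0.02 to 0.62 in captured RNA and -0.26 to 0.47 in total RNA. Same-numbered arrays also shared a chip, so these values do not establish pairs. The numbers were taken as pairs within a treatment, which the labels do not state. The steps were tested on simulated data, with independent errors for the fit without a block and a shared pair term for the pair block. No chip term was simulated. The simulation therefore does not show how the calls behave when arrays of a chip deviate together. The members, the gene lists and the tests were chosen with earlier results of these data known. Named genes are the 12 most raised and 12 most lowered called genes detected on all arrays, the 4 most raised and lowered not detected on all, the 3 of smallest p in each list and 7 stress and reference genes. Predicted genes are not named, nor is every list member.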

Additional observations from a re-analysis of the deposited data

Results flagged for a closer look

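The capture difference differed between treatments, by the test of the interaction itself, in 125 features. In a further check, the highest or lowest array of a group of 4 was compared with the spread of the others, as its gap to the nearest array over the whole range of the group. Of 288 groups tested, over genes and array mean signals, 20 had a ratio past the limit for 4 values, and chance gives about 1 in 20. The ratio was 1.00 for Rps7, 0.967 for H2bc18, 0.909 for H2bc7, 0.867 for Abhd8 and 0.861 for Elfn2 in Basal-ARP. It was 0.939 for Pebp1, 0.917 for Atp5o, 0.890 for Zfp595, 0.871 for Hexa and 0.866 for Lypla1 in Ox-ARP. It was 0.892 for H4c6 and 0.866 for Sec22a in Ox-total. In Basal-total it was 0.892 for Zbtb2, 0.869 for Zfp46, 0.863 for Ncoa4, 0.857 for Prdx1, 0.851 for Zfp523, 0.845 for Ddit3 and 0.838 for Xist. The mean array signal in Basal-total had a ratio of 0.848.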

How the results depend on the processing

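All 125 features kept their sign wherever they were tested. Of them 68 also passed with median scaling, 2 with no normalization and 108 with the authors' values. Median scaling gave 131 raised and 31 lowered and moved the median of all features to 0.08. No normalization gave 5 (3 raised, 2 lowered) and moved it to 0.14, a shift of over 0.1 against which its changes are relative. The authors' processed values gave 218 (152 raised, 66 lowered). Cyclic loess (117), quantile normalization within fractions (124), an offset of 50 (131), no background correction (132), no filter (116), detection on all 16 arrays (117), the mean of a gene's probes (150) and trend with robust (133) stayed within 1.5 times.

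Chip as a block gave 526 (291 raised, 235 lowered), chip 1 alone 3 (0 raised, 3 lowered) and chip 2 alone 0. At an unadjusted p under 0.05 in limma, chip 1 alone gave 988 and chip 2 alone 881, against 1440 in the main fit. With the captured and total pairs as a replicate block 961 passed (511 raised, 450 lowered), as a random replicate block 1104 (578 raised, 526 lowered), and with the replicate number as a block across treatments 687 (379 raised, 308 lowered). The block ended none of the 125 calls. Array weights gave 479 (248 raised, 231 lowered). An alternative chosen after seeing the data, array mean signal as a covariate, gave 1089 (607 raised, 482 lowered).

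Leaving out 1 replicate number of every group or 1 array gave 5 to 171 features, with 0 to 86 raised and 5 to 89 lowered. The total moved by over 1.5 times without replicate 1 (12), 2 (5), 3 (54) or 4 (7) of every group, and without Ox-ARP replicate 2 (76) or 4 (68), Ox-total replicate 1 (80) or 3 (56), Basal-ARP replicate 2 (72), and Basal-total replicate 1 (59) or 4 (70). Which of these differences reflect fewer arrays was not tested. Of the comparisons of single named genes across settings, 449 lost their call and 366 gained one. The others kept their side of the threshold. In 109 of those, called in neither setting, the estimate moved by at least its standard error, and the remaining 4604 were counted as the same.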
